A study of Homo sapiens with 5 samples.

Results

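CpG island shelves are the stretches of DNA that lie beyond the shores of a CpG island, between 2000 and 4000 bases from the island's edge. The members were all windows that the authors' annotation assigned to the class CpG-shelf, whatever their gene section, and they numbered 19867 of the 288391 windows of 1000 bases in the deposited table (6.89%). Of these windows, 7734 were intergenic, 4316 lay in introns, 2986 lay 1 to 5 kb upstream of a gene, 2943 spanned an intron-exon boundary, 1056 were promoters, 534 lay in a 3′ UTR, 281 in an exon and 17 in a 5′ UTR. Of the members, 3 lay on mitochondrial DNA, 2 in exons and 1 in a promoter, and these stay in all counts unless a sentence says otherwise. The other classes held 49761 windows in islands, 30080 in shores and 188683 outside all of these.

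DNA methylation was measured by reduced representation bisulfite sequencing (RRBS) in human induced pluripotent stem cells (iPSCs) of the wild-type line HPS0063 (201B7), with 1 library per condition and 5 libraries in all. The paper's assay used cells of this line with a fluorescent methyl-CpG-binding reporter, and its RRBS methods do not say whether the cells carried it. Cells were exposed for 48 h to the vehicle (0.1% DMSO) or to 1 of 4 chemicals. These were etoposide at 1 nM, propyl gallate and theophylline at 1 µM each, and 5-aza-dc (5-aza-2′-deoxycytidine) at 10 nM. Etoposide is an inhibitor of topoisomerase II, propyl gallate an antioxidant used in food, theophylline a methylxanthine that inhibits phosphodiesterases, and 5-aza-dc a cytidine analogue that traps DNA methyltransferases after it is built into DNA. All libraries came from 1 cell line and no condition had a replicate. The intervals of differences between conditions therefore cover counting error only, and the differences were not tested as effects of a chemical.

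In mammalian cells the cytosine of most CG dinucleotides is methylated, and the exceptions cluster in CpG islands, many of which hold promoters kept free of the mark. Methylation rises from the island through its shore to the shelf, and at shelves most CGs carry the mark as they do in the rest of the genome. Pluripotent cells also keep wide unmethylated tracts around many genes of developmental regulators, and these tracts can reach past the island itself.

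The libraries held 188844850 to 228919184 CpG calls in the shared windows, of which 10862621 to 13101714 lay in shelves. The median shelf window had 485 calls in the vehicle control and 393 to 443 in the other libraries, and the median width of the 95% Wilson interval of its β-value was 5.08 to 5.89 percentage points. Intervals and floors cover counting error only. In shelf windows with under 100 calls, 68.9% to 71.5% of the numbers of unmethylated calls were even. Whether the calls of a window were independent was not tested, and counting in pairs would make intervals and p-values too narrow.

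Sequence was looked at first in promoters, because a start site inside a shelf puts a regulatory region where methylation is usually high. The 250 bases upstream of the RefSeq start site (GRCh38.p14) lay wholly inside a shelf window in 271 cases. Those cases are called promoters in the part on sequence. Elsewhere, promoters and promoter windows are those of the authors' promoter section, a different set of 1056 windows. The 271 promoters belong to 254 gene symbols and lie in 243 windows, so some promoters overlap. These 6 promoters were chosen after their values were seen. They show an unmethylated and a methylated window whose promoters hold the same number of CGs, and an unmethylated window whose promoter holds few. The β-values are those of the whole window and not of the 250 bases. CG dinucleotides are in capitals, and each sequence is written 5′ to 3′ on the strand of its gene.
PFDN5, chr12:53295292-53295541, plus strand: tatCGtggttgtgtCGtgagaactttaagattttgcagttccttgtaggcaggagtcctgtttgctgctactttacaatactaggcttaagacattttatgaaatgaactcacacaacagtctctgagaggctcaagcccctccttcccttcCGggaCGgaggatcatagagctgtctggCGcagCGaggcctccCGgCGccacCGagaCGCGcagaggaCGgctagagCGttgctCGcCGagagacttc
ESS2, chr22:19144652-19144901, minus strand: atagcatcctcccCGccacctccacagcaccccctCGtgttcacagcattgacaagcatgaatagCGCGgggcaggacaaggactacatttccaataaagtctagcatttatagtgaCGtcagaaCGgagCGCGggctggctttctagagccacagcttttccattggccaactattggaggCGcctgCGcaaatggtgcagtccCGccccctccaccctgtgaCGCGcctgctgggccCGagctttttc
ANXA3, chr4:78551520-78551769, plus strand: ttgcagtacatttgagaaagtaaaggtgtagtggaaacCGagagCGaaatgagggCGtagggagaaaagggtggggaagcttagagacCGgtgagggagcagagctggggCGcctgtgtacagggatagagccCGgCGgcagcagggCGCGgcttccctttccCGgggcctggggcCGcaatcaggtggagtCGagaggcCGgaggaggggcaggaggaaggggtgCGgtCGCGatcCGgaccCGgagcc
FKBP5, chr6:35728584-35728833, minus strand: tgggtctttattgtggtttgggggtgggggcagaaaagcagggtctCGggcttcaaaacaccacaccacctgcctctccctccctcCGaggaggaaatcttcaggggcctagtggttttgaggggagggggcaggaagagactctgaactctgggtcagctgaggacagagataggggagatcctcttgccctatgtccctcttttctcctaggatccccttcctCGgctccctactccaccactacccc
CABP4, chr11:67452153-67452402, plus strand: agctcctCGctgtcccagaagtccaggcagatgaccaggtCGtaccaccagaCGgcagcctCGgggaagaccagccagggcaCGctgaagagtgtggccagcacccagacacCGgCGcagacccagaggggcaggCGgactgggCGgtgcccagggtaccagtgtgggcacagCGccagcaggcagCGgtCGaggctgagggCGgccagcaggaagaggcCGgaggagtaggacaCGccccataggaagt
ZNF19, chr16:71489325-71489574, minus strand: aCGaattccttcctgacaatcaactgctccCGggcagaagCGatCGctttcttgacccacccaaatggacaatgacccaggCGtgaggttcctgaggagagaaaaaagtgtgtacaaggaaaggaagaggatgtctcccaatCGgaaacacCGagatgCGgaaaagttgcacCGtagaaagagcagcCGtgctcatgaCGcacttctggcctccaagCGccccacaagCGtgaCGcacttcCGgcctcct

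The promoter of PFDN5, a subunit of the prefoldin chaperone, and that of ZNF19, a zinc finger protein, each held 15 CGs and 2 copies of CCGG, the site that the RRBS enzyme MspI cuts. In the vehicle control the PFDN5 window had a β-value of 0.274%, after etoposide it had 1.24%, with propyl gallate 0.154% and with theophylline 1.96%, and there were 0 of 294 methylated calls after 5-aza-dc, which allows a share of up to 1.02%. The ZNF19 window was at 90.3%, 93.8%, 90.2%, 91.0% and 91.6% in the same order of libraries. These windows did not overlap in any library, although their promoters had equal numbers of CGs. CABP4, a calcium-binding protein of photoreceptor synapses, also had 15 CGs and was at 92.1% to 95.8%. In RefSeq its upstream bases overlap GPR152, which encodes a G protein-coupled receptor.

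ANXA3, a calcium-dependent phospholipid-binding protein, had 18 CGs and a window at 0.520% to 1.09%. ESS2, a nuclear protein that associates with the spliceosome, had 14 CGs and a window at 0.485% to 1.05%. FKBP5, a co-chaperone of the glucocorticoid receptor, had 3 CGs in these 250 bases. Its window was at 0.975% to 1.83%, on 2748 to 3754 calls per library. The 250 bases of ESS2 and of FKBP5 held 0 copies of CCGG, and where in these windows the calls lay was not looked at.

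Over all 271 promoters the median number of CGs was 7, against 8 in 537 promoters in shores, 23 in 11693 promoters in islands and 7 in 2118 promoters outside these classes. CCGG occurred in 70.5% of the shelf promoters. The window of a shelf promoter had a median β-value of 85.1% over the 5 libraries, and 56 promoters (20.7%) lay in a window under 10%. This share was lower than in shores (30.2%), in islands (86.8%) and outside these classes (28.7%). Among shelf promoters, the window was under 10% for 3 of 68 with 0 to 4 CGs and 13 of 105 with 5 to 9. It was under 10% for 16 of 59 with 10 to 14 and 24 of 39 with 15 or more. The median β-value was 87.1% in the group with fewest CGs and 2.48% in the group with most, and 10 of those 39 were still at 70% or more. Across the 271 promoters, which share libraries and in part windows, Spearman's rho of the CG number with the β-value was -0.297, and this is given as a description.

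Shelf windows were highly methylated in all 5 libraries. The vehicle control had a mean β-value of 86.9% over all 19867 of them. The mean was 87.5% in the etoposide library, 87.4% with propyl gallate, 87.9% with theophylline and 85.8% with 5-aza-dc. The median window stood higher, at 91.1%, 91.8%, 91.8%, 92.2% and 90.1% in the same order. By the mean over libraries, 12498 windows (62.9%) were at 90% or more, 6040 (30.4%) at 70% to 90%, 825 (4.15%) at 30% to 70%, 219 (1.10%) at 10% to 30% and 285 (1.43%) under 10%.

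Compared with islands, shelves were 45.6 percentage points higher (SD 0.328 over 5 libraries), and compared with shores they were 4.91 points higher (SD 0.0830). Against windows outside islands, shores and shelves the difference was -1.33 points (SD 0.0543), with the same sign in 5 of 5 libraries for each class. The exact two-sided sign-flip permutation test over the 5 libraries gave p = 0.0625 for each class (adjusted p = 0.0625), the smallest value that 5 libraries allow, so it cannot pass 0.05. Medians put shelves 0.673 points above shores and 0.741 points below the windows outside.

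Within the shelf, methylation varied little with the place of a window. In the 18090 windows whose shelf could be traced to an island on 1 side only, the mean β-value was 86.8% where the window's centre lay 2500 to 3000 bases from the island edge and 86.8%, 87.3% and 87.2% in the next 3 steps of 500 bases. Of all shelf windows, 10865 (54.7%) lay wholly inside the shelf, and 424 overlapped it by 1 base. The mean was 87.3% for the 2321 windows with at most 250 bases in the shelf and 86.9% for those wholly inside.

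Gene sections differed more than positions did. In every library shelf windows in introns had the highest mean, followed by those 1 to 5 kb upstream and by intergenic windows, and promoters and 5′ UTRs had the lowest. Intron windows stood at 88.1% in the vehicle control and 88.7%, 88.8%, 89.3% and 87.1% after etoposide, propyl gallate, theophylline and 5-aza-dc. Promoter windows stood at 81.3%, 82.0%, 81.9%, 82.5% and 80.0%, and no library's promoter mean reached the lowest intron mean. Exon and intron-exon boundary windows changed places in the order between the vehicle control and the 4 other libraries. That order includes 2 mitochondrial exon windows, at 0% to 2.99%, which lower the exon mean. Without mitochondrial windows, the exon mean was above the mean of all other shelf windows in every library. Intron-exon boundaries stayed below the mean of all other shelf windows, in the mean over libraries. These comparisons take the other windows as a group and do not give a rank among the sections.

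Each section was then compared with all other shelf windows of the same library. The difference was -5.85 points for promoters (SD 0.131 over 5 libraries), -7.08 for 5′ UTRs (SD 1.15), -0.915 for 3′ UTRs (SD 0.163) and -0.728 for intron-exon boundaries (SD 0.108). Introns were 1.67 points higher (SD 0.0996), windows 1 to 5 kb upstream 0.446 points higher (SD 0.0510) and intergenic windows 0.335 points higher (SD 0.0388). These 7 differences had the same sign in 5 of 5 libraries, and the exact two-sided sign-flip permutation test gave p = 0.0625 for each of them (adjusted p = 0.0714 over the 8 sections). Exons differed by -0.324 points (SD 0.295) and were higher in 1 of 5 libraries (exact p = 0.125, adjusted p = 0.125). Without the 2 mitochondrial exon windows, which stood at 0% to 2.99%, exons were 0.288 points higher than the other sections (SD 0.299) and higher in 5 of 5 libraries, and the 7 other differences kept their sign.

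The promoter difference rested on a minority of windows. By the median the promoter windows were 1.10 points below the other sections and introns 0.412 points above, and 61 promoter windows of 1056 (5.78%) against 32 intron windows of 4316 (0.741%) had a mean β-value under 10%. With all calls pooled, in which deep windows weigh more, the difference was -10.5 points for promoters and 2.98 points for introns. The smaller differences did not hold under every average. Intron-exon boundaries and intergenic windows changed sign with the median, 3′ UTRs when all calls were pooled, and exons on the autosomes alone and with at least 30 calls in all libraries.

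**Figure D1:**
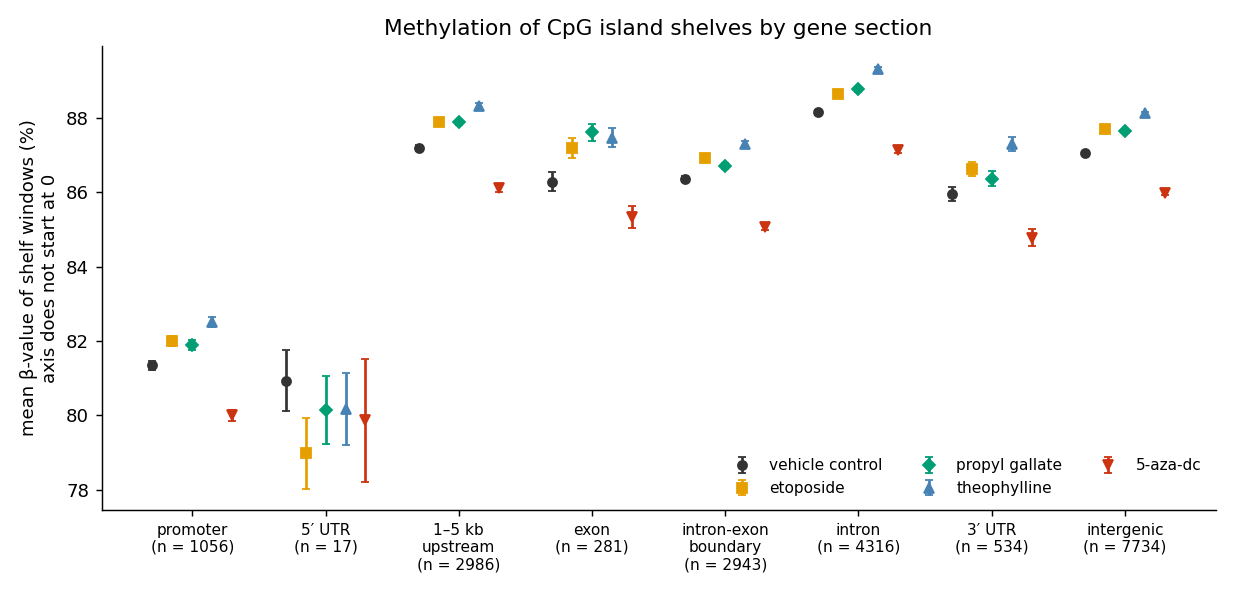
The mean β-value of shelf windows in percent is plotted for each gene section, with 1 point per library, 95% counting intervals and the number of windows under each section. The vertical axis does not start at 0. Promoters sit at 80.0% to 82.5% and introns at 87.1% to 89.3%, and 5-aza-dc is the lowest library in each section but the 5′ UTR.

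The comparison with the vehicle control asked how far each chemical went with a change of methylation across shelves. After etoposide the mean β-value was 0.613 points higher (95% counting interval 0.570 to 0.656), after propyl gallate 0.588 points higher (0.546 to 0.630) and after theophylline 1.10 points higher (1.05 to 1.14). After 5-aza-dc the difference was -1.10 points (-1.15 to -1.06). Shelf windows were higher than the vehicle control in 56.0%, 56.1% and 60.6% of cases after the first 3 chemicals, and lower in 58.8% after 5-aza-dc. The direction was shared by all 22 autosomes for each chemical.

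These shifts were small beside the spread between windows, whose differences had an SD of 5.24 to 6.06 points. Etoposide and propyl gallate differed from each other by 0.0250 points, and the widest gap between any pair of libraries was the 2.20 points by which 5-aza-dc lay under theophylline. The mean log2 ratio of the β-value to the vehicle control, in which windows at 0 are left out, was 0.0088 with etoposide, 0.0066 with propyl gallate, 0.018 with theophylline and -0.026 with 5-aza-dc. Windows outside islands, shores and shelves moved by like amounts, by 0.599, 0.675, 1.11 and -0.995 points. All 4 comparisons share the vehicle control library, so a departure of that library would enter each of them.

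The 7 sections with over 100 windows each showed these directions. After 5-aza-dc the difference ran from -0.956 points in exons to -1.34 points in promoters, and after theophylline from 0.956 points at intron-exon boundaries to 1.35 points in 3′ UTRs. Etoposide ranged from 0.506 points in introns to 0.904 in exons, and propyl gallate from 0.360 at intron-exon boundaries to 1.33 in exons. The counting intervals of most sections overlapped, with 281 exon windows giving the widest. The 17 windows of 5′ UTRs were lower in the mean after each chemical, by -1.96, -0.790, -0.753 and -1.07 points in the order above. This direction did not hold under other averages. With all calls pooled the difference was 4.55 points with etoposide, 3.20 with propyl gallate, 4.68 with theophylline and -3.70 with 5-aza-dc, and with the median it was 0.242, -0.555, 0.076 and 0.066 points.

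**Figure D2:**
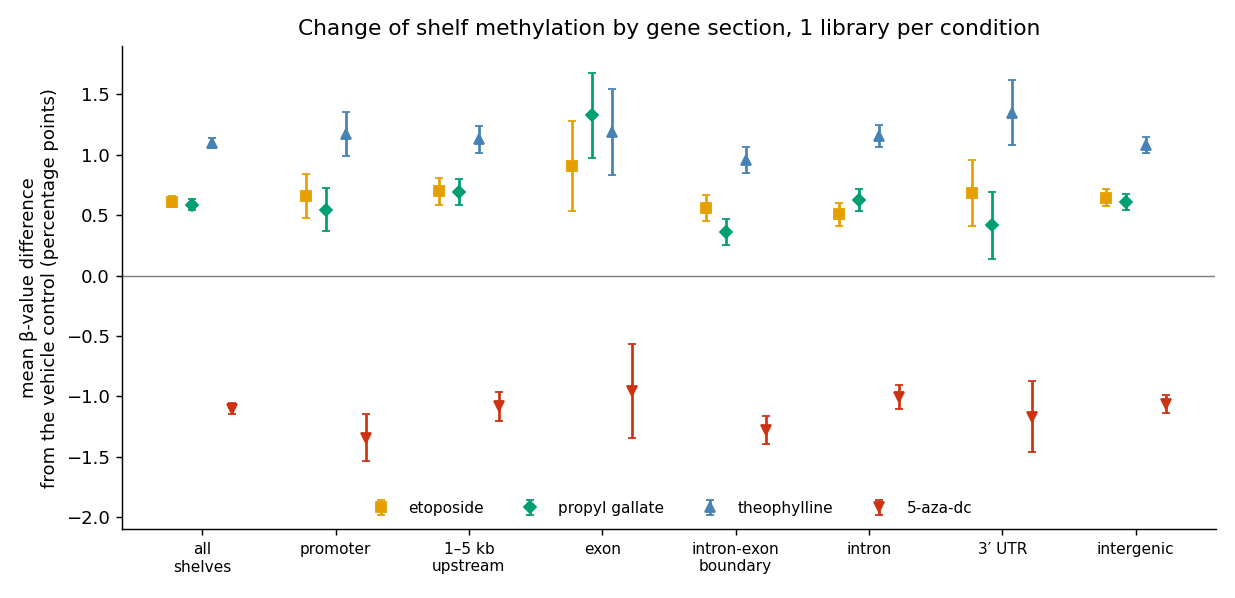
The mean β-value difference from the vehicle control, in percentage points, is plotted for all shelves and for the 7 sections with over 100 windows. Points are the differences of 1 library per chemical and bars are 95% counting intervals. Etoposide, propyl gallate and theophylline lie above 0 in each section shown and 5-aza-dc lies below 0.

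The size of the difference after 5-aza-dc depended on the level. In the 12498 windows at 90% or more it was -0.751 points, in the 6040 windows at 70% to 90% -1.54 points, in the 825 windows at 30% to 70% -2.63 points and in the 219 windows at 10% to 30% -3.32 points. In the 285 windows under 10% the mean went from 4.13% in the vehicle control to 3.15%, a difference of -0.986 points. Relative to the level this was more than in high windows, with a mean log2 ratio of -0.25 under 10% and -0.26 at 10% to 30%, against -0.012 at 90% or more. Under 10% the ratio was also below 0 with propyl gallate, at -0.13 (interval -0.21 to -0.062). With etoposide and theophylline it was -0.0046 and -0.031, with intervals that included 0. These comparisons share the vehicle control. Etoposide and propyl gallate, which were above the vehicle control over all shelves, were below it at 10% to 30%, by -0.945 points (interval -1.46 to -0.434) and -1.43 points (-1.94 to -0.925). At 30% to 70% they differed from it by 0.451 points (0.0966 to 0.806) and -0.0782 points (-0.427 to 0.271). Theophylline was 1.73 points above the vehicle control at 30% to 70% and -0.293 points at 10% to 30%, where the counting interval of -0.824 to 0.238 included 0.

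Few single shelf windows differed from the vehicle control at a threshold of 25 points. The counts at 10 points were larger and are given at the end. Fisher's exact test, adjusted by Benjamini-Hochberg over all windows of the table, compares 2 libraries and not 2 conditions. With a change of 25 points or more and an adjusted p below 0.01, 28 shelf windows were called higher and 25 lower after etoposide, against 0.1% and 0.0926% of all windows. After propyl gallate 21 were higher and 20 lower (background 0.0933% and 0.0832%), and after theophylline 29 were higher and 10 lower (0.104% and 0.07%). After 5-aza-dc 20 were higher and 41 lower, against 0.0746% and 0.235% of all windows. The shares of shelves, 0.0503% to 0.206%, were near those backgrounds. Of the 41 windows lower after 5-aza-dc, 14 were intergenic, 10 lay in introns, 9 at intron-exon boundaries, 5 were 1 to 5 kb upstream, 2 were promoters and 1 lay in a 3′ UTR.

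Most of these calls came from thin windows, since the median depth of a called window after the chemical was 38.5 to 73.0 calls. With at least 100 calls in both libraries there remained 4 higher and 6 lower after etoposide, 2 and 2 after propyl gallate, 6 and 2 after theophylline, and 0 and 5 after 5-aza-dc. When all calls were divided by 2, the counts were 3 and 4, 3 and 2, 3 and 1, and 2 and 10. In all, 146 shelf windows were called after at least 1 chemical, 35 in the same direction after at least 2 and 1 after all 4, in comparisons that share the vehicle control.

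Among the 16124 shelf windows with at least 100 calls in all 5 libraries, the range of the β-value over libraries had a median of 5.95 points. It was under 5 points in 6070 windows (37.6%), at least 10 points in 2593 (16.1%), at least 20 points in 149 (0.924%) and at least 30 points in 5. Without a coverage minimum, 5-aza-dc lay at least 25 points below each other library in 29 windows, against 0 to 11 for each of the other libraries, but 1 of those 29 had at least 100 calls throughout.

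That window lay in an intron of CTIF (chr18:48545001-48546000), a factor in the translation of newly made mRNA bound by the nuclear cap-binding complex. It stood at 59.2% in the vehicle control, 51.3% with etoposide, 52.1% with propyl gallate, 53.7% with theophylline and 23.4% with 5-aza-dc. The 95% Wilson interval after 5-aza-dc was 16.2% to 31.6% on 113 calls, below the intervals of the 4 other libraries. Fisher's exact test gave an adjusted p of 4.05e-09 against the vehicle control. It had the largest range of all shelf windows with 100 calls, 35.8 points.

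The next falls after 5-aza-dc were at intron-exon boundaries. In RGS14, a regulator of G protein signalling (chr5:177371001-177372000), the window stood at 52.9% in the vehicle control, 38.3%, 38.6% and 45.1% after etoposide, propyl gallate and theophylline, and 25.9% after 5-aza-dc. In BID, a protein of the BCL2 family that promotes apoptosis (chr22:17743001-17744000), it was 63.8% in the vehicle control, 59.0%, 52.4% and 53.4% in the same order, and 37.4% after 5-aza-dc. The BID value with propyl gallate rested on 75 calls. In these 3 genes 5-aza-dc was the lowest library and the vehicle control the highest. Choosing windows by their difference from the vehicle control favours such an order, here and in the rises and falls named below. With all calls divided by 2 the adjusted p of Fisher's exact test for BID rose from 2.01e-05 to 0.0165.

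The largest rise after 5-aza-dc was at an intron-exon boundary of the long noncoding RNA LINC01841 (chr19:14363001-14364000). It stood at 13.3% in the vehicle control, 22.6% with etoposide, 25.4% with propyl gallate, 23.7% with theophylline and 36.8% with 5-aza-dc, on 581 to 711 calls. All 4 libraries lay above the vehicle control here, 5-aza-dc by 23.6 points (Fisher's exact test, adjusted p = 7.87e-20). A window of TBC1D25, which acts on Rab GTPases in autophagy (chrX:48555001-48556000, intron), stood at 73.1%, 100%, 76.1%, 83.1% and 94.6%, with 54 calls in the etoposide library. An intergenic window assigned to ENSG00000233021 (chr10:476001-477000) was at 70.7%, 72.0%, 87.3%, 90.5% and 92.9%.

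The largest rise after etoposide lay in the 3′ UTR of STARD3, a cholesterol-binding protein of late endosomes (chr17:39663001-39664000). It stood at 59.4% in the vehicle control, 90.5% with etoposide, 74.6% with propyl gallate, 68.8% with theophylline and 67.5% with 5-aza-dc. Etoposide, with a Wilson interval of 86.6% to 93.4%, lay above the other 4 libraries, and its difference of 31.1 points had an adjusted p of 6.38e-16 by Fisher's exact test. SPSB1, an adaptor of ubiquitin ligases (chr1:9319001-9320000, intron), stood at 58.8% in the vehicle control and 84.6%, 73.8%, 71.9% and 69.7% in the order of chemicals above. The vehicle control was the lowest library in both, which choosing windows by their rise from it favours.

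Among the falls after etoposide, the promoter window of ADAMTSL2, a secreted glycoprotein of microfibrils (chr9:133531001-133532000), went to 55.1% from 83.5% in the vehicle control, with 77.8%, 86.7% and 92.2% after propyl gallate, theophylline and 5-aza-dc. The value after 5-aza-dc rested on 74 calls. The intergenic window nearest to the pseudogene RNA5SP468 (chr19:17962001-17963000, 9025 bases from its start) stood at 51.2% in the vehicle control, and at 22.8%, 19.3%, 33.3% and 28.3% after the 4 chemicals. Its Wilson interval in the vehicle control, 43.6% to 58.8%, did not overlap those of the other libraries. A difference of this kind, with the vehicle control apart, enters every comparison, and choosing windows by their difference from that library favours such cases. The largest fall after etoposide was in an intergenic window 2879 bases from the start of ENSG00000248895 (chr17:48884001-48885000), at 94.6% in the vehicle control, 64.7% after etoposide and 83.2% to 93.3% after the other chemicals.

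After propyl gallate the named rises and falls included genes of transcription factors. An intron of PRRX2, a paired-type homeobox gene (chr9:129686001-129687000), stood at 65.0% in the vehicle control, 66.7% with etoposide, 90.7% with propyl gallate, 62.0% with theophylline and 76.2% with 5-aza-dc. An intron of TEAD4, a transcription factor of the Hippo pathway (chr12:2964001-2965000), stood at 31.1%, 17.0%, 8.36%, 19.1% and 10.8%. Propyl gallate was the highest library in PRRX2 and the lowest in TEAD4 (adjusted p = 1.99e-06 and 9.41e-08 by Fisher's exact test). An intergenic window 3816 bases from the start of ENSG00000278026 (chr3:181719001-181720000) was at 57.4%, 58.1% and 62.6% in the vehicle control, with etoposide and with 5-aza-dc, and at 85.0% and 84.0% after propyl gallate and theophylline.

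After theophylline, the largest rise was in the intergenic window assigned to H19, an imprinted noncoding RNA, 28531 bases from its start (chr11:2030001-2031000). It was at 43.7% in the vehicle control, 67.2% with etoposide, 60.4% with propyl gallate, 71.6% with theophylline and 63.9% with 5-aza-dc. The Wilson interval of the vehicle control, 37.9% to 49.8%, lay below those of the other 4 libraries. An intron of the pseudogene UNC93B2 (chr7:6858001-6859000) was at 31.7%, 46.1%, 52.4%, 58.7% and 45.8%, again lowest in the vehicle control. Windows chosen by their rise from the vehicle control tend to be low in it. The window 4086 bases upstream of ENSG00000275178 (chr18:77088001-77089000) was at 78.9% in the vehicle control and 64.7%, 51.4%, 49.0% and 55.8% after the chemicals. A further fall was at ZBED1 (chrX:2493001-2494000, intron), with 92.4%, 64.4%, 77.1%, 66.9% and 86.3%, on 50 calls with etoposide and 88 with propyl gallate. Another was in the window nearest to GTF2H3, a subunit of TFIIH (chr12:123666001-123667000), with 84.3%, 76.4%, 66.7%, 60.1% and 69.4%.

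P2RY6, a receptor for UDP, and EXD1, a protein of the piRNA pathway, completed the 5 windows of largest range. The P2RY6 window (chr11:73292001-73293000, intron-exon boundary) was at 54.5% in the vehicle control, 60.4% with etoposide, 37.3% with propyl gallate, 70.7% with theophylline and 50.5% with 5-aza-dc. The EXD1 window (chr15:41226001-41227000, intron-exon boundary) was at 83.3%, 67.4%, 96.4%, 99.3% and 87.4%. Theophylline was the highest library in both, and the lowest was propyl gallate at P2RY6 and etoposide at EXD1. Of the 24 rises and falls named by chemical, 10 had an adjusted p of 0.01 or more once all calls were divided by 2.

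A small set of shelf windows was nearly free of methylation. With at least 100 calls in all 5 libraries, 214 of 16124 windows (1.33%) were under 10% in each, against 3.87% of shore windows, 47.3% of island windows and 1.11% of the windows outside. Of promoter windows 52 of 865 (6.01%) were low, of intron-exon boundaries 42 of 2441 (1.72%), of windows 1 to 5 kb upstream 28 of 2408 (1.16%), of intergenic windows 59 of 6283 (0.939%) and of introns 22 of 3459 (0.636%). In exons 4 of 227 windows were low, in 3′ UTRs 6 of 426 and in 5′ UTRs 1 of 15. The 3 mitochondrial windows were among them, and without these 211 of 16121 shelf windows, 51 of 864 promoter windows and 2 of 225 exon windows were low. The window of MT-CO2, a subunit of cytochrome c oxidase (promoter), was at 0% to 0.571%, where 0 of 254 calls with 5-aza-dc allow up to 1.18%, and those of MT-ND4 and MT-ND5, subunits of complex I (both exon), were at 0% (0 of 201 calls with theophylline, up to 1.49%) to 2.99% and at 0.238% to 1.25%.

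Low windows often lay next to each other. Of the 183 windows of the table that adjoin a low shelf window, 80 (43.7%) had a mean under 10% and 56 (30.6%) were at 70% or more, while of 12986 that adjoin other shelf windows with at least 100 calls, 132 (1.02%) were under 10%. By the definition of a shelf, which lies beyond the shore, none of these neighbours could be an island window. Shore windows made up 54 of the 183, against 3761 of the 12986. Without the mitochondrial windows, 76 of 179 neighbours (42.5%) were under 10%. Among nuclear genes with a symbol, 11 had 2 low shelf windows and 151 had 1.

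The 10 lowest windows of nuclear genes with a symbol stood under 2% in every library. The lowest of these was 4115 bases from the start of SP8, a zinc finger transcription factor of limb and forebrain (chr7:20791001-20792000), at 0.494% in the vehicle control, 0.354%, 0.127%, 0.780% and 0.337% after the chemicals. The window of NR2F2, a nuclear receptor of heart and vessel development (chr15:96326001-96327000), was at 0.809%, 0.577%, 1.00%, 0.639% and 0.488%, on 1897 to 2751 calls. UBA1, the enzyme that starts ubiquitin transfer (chrX:47190001-47191000, promoter), was at 0.354% to 1.02%, and MTMR4, a phosphatase of phosphoinositides (chr17:58514001-58515000), at 0.426% to 0.877%. ZNF442, NUDT22, DYNC2I1, PFDN5, ESS2 and an intron window of FKBP5 made up the rest.

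Several genes had 2 adjoining low windows. FKBP5 had its promoter window at 0.975% to 1.83% and its intron window (chr6:35727001-35728000) at 0.176% to 1.10%. BARHL2, a homeobox gene of the nervous system, had a window in its 3′ UTR (chr1:90711001-90712000) at 0 of 258 calls in the vehicle control, which allows up to 1.16%, and 1.21% to 3.63% in the other libraries. Its neighbour at an intron-exon boundary (chr1:90712001-90713000) stood at 1.22% to 7.04%. GLI2, a transcription factor of Hedgehog signalling, had intron windows at 1.65% to 2.89% (chr2:120740001-120741000) and 2.51% to 6.67% (chr2:120741001-120742000). LMX1B, a LIM homeobox gene of limb and midbrain, had intron windows at 0.489% to 1.33% (chr9:126618001-126619000) and 4.86% to 6.48% (chr9:126619001-126620000).

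SIPA1, which switches off Rap GTPases, had a promoter window at 0.889% to 1.32% (chr11:65638001-65639000) and, further into the gene, a window at 2.50% to 6.48% (chr11:65642001-65643000). In the latter the vehicle control was highest and 5-aza-dc lowest. CTC1, a protein of the telomere complex CST, had 2 windows in its 3′ UTR, of which the window at chr17:8226001-8227000 fell from 9.13% in the vehicle control to 2.13% after 5-aza-dc, with 5.23% to 7.04% after the other chemicals. PIP5KL1 and NTM-AS1 had pairs at 0.757% to 5.29% and 0.745% to 6.85%.

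Low windows were also counted by gene list. A list of 197 homeobox and other lineage transcription factors had 113 shelf windows at 59 genes, with 20 windows under 10% and 29 (25.7%) under 30%, while 504 of all 19867 shelf windows (2.54%) were under 30%. The median of the list was 85.3% against 91.5% for all shelf windows, and its mean was 64.5% in the vehicle control, 64.8%, 64.7% and 65.9% after etoposide, propyl gallate and theophylline, and 64.1% after 5-aza-dc. The list was chosen with earlier results of these data known and was not tested as a set.

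Its low windows spread over several families. Other shelf windows of the same families and genes were high, with means over libraries of 88.6% at HOXB2, up to 95.2% at LMX1B and up to 85.5% at PAX7. Of the HOXB cluster, the window nearest to HOXB1 (chr17:48527001-48528000) was at 1.58% to 2.54%, that of HOXB4 (chr17:48573001-48574000) at 2.02% to 6.54% and that of HOXB5 (chr17:48589001-48590000) at 6.19% to 14.1%. Of the HOXC cluster, HOXC10 had a window in its 3′ UTR (chr12:53990001-53991000) at 4.43% to 9.02% and HOXC4 a promoter window (chr12:54015001-54016000) at 15.1% to 18.4%. GATA2, a regulator of blood stem cells (chr3:128483001-128484000), was at 0.707% to 2.43%, and OTX2, which patterns the forebrain (chr14:56804001-56805000), at 1.81% to 5.05%. NKX2-5, of the heart (chr5:173229001-173230000), was at 3.05% to 5.27%.

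A few windows of the list differed between libraries. At another window of HOXB4 (chr17:48568001-48569000), 9350 bases from its start, the vehicle control was at 23.1% and the others at 6.67%, 12.5%, 7.27% and 11.9%. An intron of PAX7, a paired box gene of muscle stem cells (chr1:18651001-18652000), was at 14.0% in the vehicle control and 2.43%, 6.25%, 4.10% and 8.79% after the chemicals. At both the vehicle control was the highest library. The highest window of the list, assigned to ASCL2, a transcription factor of trophoblast (chr11:2276001-2277000), was at 94.9% to 100% on 30 to 73 calls. Over the 113 windows, 1 was called higher and 1 lower after etoposide, 1 higher after propyl gallate, 1 lower after theophylline and 1 lower after 5-aza-dc, and 0 of these 5 calls held once all calls were divided by 2. The 3 lower calls were 1 window assigned to HOXB7 (chr17:48607001-48608000, intron-exon boundary), at 34.8% on 23 calls in the vehicle control 4.0%, 11.1% and 6.49% with etoposide, propyl gallate and 5-aza-dc, and 0 of 27 calls with theophylline, which allows up to 11.1%. The higher calls were 1 intergenic window of the LIM homeobox gene LHX3 (chr9:136189001-136190000), at 59.0% on 39 calls in the vehicle control and 96.9%, 94.9%, 77.4% and 66.7% after the chemicals, on 30 to 54 calls. Both rest on thin windows. The windows of HOXB4 and PAX7 differed by under 25 points and were not called.

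Shelf windows of 28 pluripotency genes, 26 windows at 15 genes, had a median of 90.9%, with 3 windows under 30%. ZFP42, a zinc finger gene known as REX1, was assigned a pair of adjoining intergenic windows 35230 and 36230 bases from its start. The window at chr4:188031001-188032000 had 0 of 251 methylated calls in the vehicle control, which allows up to 1.20%, and was at 6.44%, 3.83%, 1.12% and 2.16% after the chemicals. Its neighbour (chr4:188032001-188033000) was at 15.6% in the vehicle control and 20.2% to 22.1% in the others, so the vehicle control was the lowest library in both. DPPA5, a gene of early embryonic cells, had a window 4276 bases away (chr6:73349001-73350000) at 18.9% to 21.8%, and L1TD1, an RNA-binding protein of pluripotent cells, an intron window (chr1:62199001-62200000) at 51.5% to 64.4%. The highest window of the list lay in the 3′ UTR of SALL4 (chr20:51782001-51783000), at 96.6% to 98.0%. None of the 26 windows was called in any of the 4 comparisons.

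Of 47 imprinted genes, 17 had 35 shelf windows with a median of 90.3%. The lowest was 3987 bases upstream of SNURF, in the imprinted region of chromosome 15 (chr15:24950001-24951000), at 41.5% in the vehicle control, 29.9% with etoposide, 56.8% with propyl gallate, 45.0% with theophylline and 31.1% with 5-aza-dc. The window assigned to H19, described above, was the only other window of this list between 30% and 70%, and its only called window. The highest was assigned to ZNF331 (chr19:53582001-53583000) at 95.9% to 100%.

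Of 26 germline genes that are known to be silenced by promoter methylation, 7 had 22 shelf windows with a median of 92.0%. The window assigned to RNF212, a factor of meiotic crossing over (chr4:1055001-1056000), was at 34.1%, 34.5%, 31.0%, 31.8% and 29.2% on 1740 to 2250 calls. The promoter window of SOHLH1, a transcription factor of early germ cells (chr9:135705001-135706000), was at 70.5%, 69.7%, 68.1%, 67.7% and 62.8%. In both 5-aza-dc was the lowest library. Another intergenic window of SOHLH1 (chr9:135681001-135682000) was the highest of the list, at 88.9% to 100% on 10 to 54 calls. None of the 22 windows was called.

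The machinery of DNA methylation and demethylation had 21 shelf windows at 9 of 25 genes, with a median of 91.5%. GADD45B, a stress-response gene linked to demethylation (chr19:2471001-2472000), had the lowest at 78.1% to 83.4%, and HELLS, a chromatin remodeller needed for DNA methylation (chr10:94542001-94543000), the highest at 90.5% to 100%. Of 47 targets and response genes of the chemicals, 19 had 33 shelf windows with a median of 92.5%. The lowest was a window 7200 bases from the start of SRXN1, an antioxidant enzyme (chr20:645001-646000), at 9.72% in the vehicle control and 6.57% to 7.83% after the chemicals. ADORA2B, an adenosine receptor, had an intron window (chr17:15950001-15951000) at 100% in all 5 libraries, on 18 to 44 calls.

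Of the 9 genes that the study followed from its arrays, SMAD4 and CREBBP had 7 shelf windows, with means over the list of 96.1% in the vehicle control, 94.3% with etoposide, 95.0% with propyl gallate, 94.4% with theophylline and 93.6% with 5-aza-dc. These values lay between 93.6% and 96.1%, above the mean of all shelves, and none of the 7 windows was called. JAG1, LIFR, CCND2 and RB1, for which the paper reports a rise by array and by RRBS, had no shelf window. The lowest window was intergenic and assigned to SMAD4, a mediator of TGF-β signalling, 85607 bases from its start (chr18:51114001-51115000). It was at 98.7% in the vehicle control, 88.7%, 97.3%, 93.7% and 90.2% after the chemicals, on 34 to 101 calls. The window of CREBBP, a histone acetyltransferase (chr16:3738001-3739000), was at 97.9%, 96.9%, 96.6%, 96.5% and 95.0% on 770 to 1078 calls.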

How the data were processed

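RRBS measured CpG methylation in 5 libraries of iPSCs (HPS0063, 201B7), 1 per condition. The authors trimmed reads with TrimGalore 0.5.0, aligned them with Bismark 0.20.0 in non-directional mode, sorted them with SAMtools 1.9, checked them with FastQC 0.11.7 and used methylKit 1.10.0 to sum calls in windows of 1000 bases, to scale coverage, to drop windows with too few or extremely many calls and to keep those shared by the libraries. The build in the submitters' processing notes is hg38.

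In the deposited table the vehicle control holds counts of methylated and unmethylated calls, with at least 10 per window. In the other libraries the deposited calls are a score, since the authors scaled them by a factor per library before rounding. The deposited β-value is the fraction of methylated calls, printed here as a percent. Per-library tables that the authors deposited held the same β-values in all 288391 windows. The factors, read from gaps in the whole numbers used, were 1.18, 1.09, 1.15 and 1.21 for etoposide, propyl gallate, theophylline and 5-aza-dc. For at least 99.9% of windows, recovered calls scaled again gave the deposited coverage. Fisher's exact test was run on recovered calls over all windows with Benjamini-Hochberg adjustment, and was tested on simulated data. The labels name a DNeasy kit for DNA extraction and the methods another kit.

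Shelf windows were taken as annotated, and 4899 had no gene symbol. An assigned gene of an intergenic window is only the nearest. The members and lists were chosen with earlier results of these data known. Windows named in the text came from the 3 largest rises and falls per chemical (adjusted p under 0.01, at least 100 calls in both libraries), the 10 lowest, the 5 of largest range, up to 8 genes with most low windows, and the lowest and highest window of each list. Mitochondrial windows were left out of these choices. Further windows under 30% of the lineage list and under 70% of 3 other lists, and the called windows of the lineage list, were chosen after their values were seen. Promoter sequences are from RefSeq (GRCh38.p14). Calculations used Python 3.11.15 with numpy 2.4.6, pandas 2.3.3, scipy 1.17.1, numba 0.67.0 and matplotlib 3.10.9. Alternatives covered coverage minimums, averages, autosomes, thresholds, pseudocounts and calls divided by 2. A further alternative used the mean of the other 4 libraries, vehicle control included, as reference.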

Additional observations from a re-analysis of the deposited data

How the results depend on the processing

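The direction of the mean difference from the vehicle control over all shelves was kept for each chemical under the 8 alternatives run, and that of the mean log2 ratio under 4. With at least 100 calls in all 5 libraries the differences were 0.560 points with etoposide, 0.545 with propyl gallate, 1.02 with theophylline and -1.17 with 5-aza-dc. The median over windows gave 0.558, 0.526, 0.948 and -0.898. Against the mean of the other 4 libraries they were 0.467 for etoposide, 0.436 for propyl gallate and -1.68 for 5-aza-dc. Pooled calls gave 0.657 for etoposide and -1.19 for 5-aza-dc, and at least 30 calls gave 1.04 for theophylline. The mean log2 ratio became 0.0088 with propyl gallate, 0.016 with theophylline and -0.015 with 5-aza-dc when the median was taken. In windows of at least 10% it was 0.0085 after propyl gallate and -0.023 after 5-aza-dc, and with 1 percentage point added -0.027 after 5-aza-dc.

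Against the other shelf sections, exons changed sign with at least 30 calls (0.0876 points) and on the autosomes (0.496), intron-exon boundaries (0.0038) and intergenic windows (-0.0840) with the median, and 3′ UTRs with pooled calls (0.615). Without the 3 mitochondrial windows, an alternative chosen after seeing the data, exons also changed sign (0.288). The 5′ UTR differences from the vehicle control, all below 0 in the mean, became 4.55, 3.20 and 4.68 with pooled calls for etoposide, propyl gallate and theophylline, and the medians were 0.242, 0.076 and 0.066 for etoposide, theophylline and 5-aza-dc. In these the cause was not tested.

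The counts of called windows are given as higher and lower, in the order etoposide, propyl gallate, theophylline and 5-aza-dc. At a difference of 10 points they were 302 and 202, 264 and 174, 340 and 132, and 170 and 560, and at 40 points 7 and 4, 4 and 4, 8 and 1, and 5 and 12. At least 100 calls gave 4 and 6, 2 and 2, 6 and 2, and 0 and 5, and calls divided by 2 gave 3 and 4, 3 and 2, 3 and 1, and 2 and 10. An adjusted p under 0.05 gave 33 and 31 after propyl gallate and 32 higher after 5-aza-dc, and at least 30 calls gave 12 higher after 5-aza-dc. Low windows numbered 389 at a threshold of 30%, and low exon windows 2 instead of 4 without mitochondrial DNA.

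No paired analysis was possible because each condition had 1 library. Depth limits single windows, and neither the spread between cultures nor a shift of the vehicle control library can be told apart from the effect of a chemical.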
